A study of Mus musculus with 16 samples.

Results

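A set of 10 mouse genes that mark T lymphocytes and natural killer (NK) cells were followed in kidney RNA: Cd3d, Cd3e, Cd3g, Cd4, Cd8a, Cd8b1, Cd2, Lck, Ltb and Nkg7. They were chosen by name, with earlier results of these data known, as 10 of the 40879 gene symbols listed, and all 10 were found. The kidneys came from male wild-type C57BL/6 mice in 4 groups, profiled by QuantSeq, an assay that sequences one tag near the 3′ end of each transcript. The 3 Old+PM libraries and the 3 Old+YM libraries came from aged mice given PM or YM by mouth at 100 mg/kg per day on 5 days a week, begun at 19 months of age and kept up to 24 months. By the series title YM and PM stand for Yukmijihwang-tang and Palmijihwang-tang, 2 herbal decoctions. PM is known as the YM recipe with cinnamon and aconite added. The 5 Old libraries came from untreated mice left to age, with no age at sampling stated in the labels, and the 5 Young libraries came from mice of 3 months. One passage of the labels describes the PM dose as YM, which was taken as a slip, with PM at the same dose and schedule. The question was how natural ageing of the kidney, and each decoction within it, changed these transcripts.

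T cells recognise antigen through a receptor whose signal is carried into the cell by the CD3 chains. Helper T cells carry the co-receptor CD4 and cytotoxic T cells carry CD8, a pair of chains encoded by Cd8a and Cd8b1. Both co-receptors bring the kinase LCK to the receptor. NK cells and cytotoxic T cells kill with granules, of which NKG7 is a membrane protein. Lymphocytes are a small minority among the tubule cells of a healthy kidney, and they are known to gather in the kidneys of ageing mice, where they can form lymphoid aggregates.

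The libraries held 8223008 to 10914515 counts each, so that 1 CPM (the unit used here, a count divided by the TMM-scaled library size) was about 8.22 counts in the shallowest one. At this depth every one of the 10 genes sat near the floor of detection, with 0 to 28 counts in each library other than the Old+PM libraries and Old replicate 5. Cd3g, Cd4 and Ltb were too low for the count filter and were tested only in the fit with no filter, which left 7 genes among 14665 tested. Old replicate 5 stood apart from all other libraries, with 646 counts over the 10 genes against 57 to 113 in Old replicates 1 to 4. The main edgeR comparisons with the Old group are given with and without Old replicate 5. Overlaps of groups and other processing settings are not always given both ways. Mitochondrial transcripts took 14.98% to 27.7% of the counts. In whole-kidney RNA, fewer cells of a type and less RNA per cell cannot be told apart. Nothing in the labels ties 1 library to 1 mouse, so p-values measure the spread between libraries, which may be technical.

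By the GENCODE M21 annotation of GRCm38 (mm10), the 3 CD3 chains form one cluster on chromosome 9. Cd3g (chr9:44969572-44980431, minus strand) and Cd3d (chr9:44981786-44987339, plus strand) point away from each other with 1354 bases between them, and Cd3e (chr9:44998740-45009627, minus strand) follows 11400 bases beyond Cd3d. Cd8b1 (chr6:71322788-71337494, plus strand) and Cd8a (chr6:71373427-71379173, plus strand) are neighbours with 35932 bases between them. Cd4 lies elsewhere on the same chromosome (chr6:124864692-124888221, minus strand). The others are Cd2 (chr3:101275899-101287939, minus strand), Lck (chr4:129548344-129573641, minus strand), Ltb (chr17:35194439-35196320, plus strand, 3060 bases from Tnf) and Nkg7 (chr7:43437073-43438249, plus strand). The annotated genes Gm48720 and Gm48719 overlap Cd3e on the same and on the other strand. No source used here gives the strand setting of the counting, and reads of these genes and of Cd3e may not be separable.

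RefSeq promoter windows (GRCm38.p6) were matched for 7 of the 10 genes, in 8 windows because Lck has 2. The 250 bases before the start are shown for Nkg7, 1 of the 3 genes that rose with age (chr7:43436888-43437137, plus strand), and for the CD3 cluster, where Cd3d (chr9:44981536-44981785, plus strand) and Cd3g (chr9:44980432-44980681, minus strand) share one short stretch between their starts and Cd3e (chr9:45009612-45009861, minus strand) has its own. Capitals mark matches on either strand to AGGAAG, the core bound by ETS factors, or to TGTGGT, the core bound by RUNX factors.
Nkg7: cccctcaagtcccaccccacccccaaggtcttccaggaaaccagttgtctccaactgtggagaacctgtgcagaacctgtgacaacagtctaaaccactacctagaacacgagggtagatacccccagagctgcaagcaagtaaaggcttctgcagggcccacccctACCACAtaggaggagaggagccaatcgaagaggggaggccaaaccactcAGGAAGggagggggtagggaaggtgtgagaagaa
Cd3d: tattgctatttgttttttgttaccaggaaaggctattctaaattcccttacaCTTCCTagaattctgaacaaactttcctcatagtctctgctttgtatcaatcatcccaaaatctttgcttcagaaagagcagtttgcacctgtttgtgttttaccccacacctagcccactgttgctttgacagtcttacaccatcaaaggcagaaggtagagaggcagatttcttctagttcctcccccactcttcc
Cd3g: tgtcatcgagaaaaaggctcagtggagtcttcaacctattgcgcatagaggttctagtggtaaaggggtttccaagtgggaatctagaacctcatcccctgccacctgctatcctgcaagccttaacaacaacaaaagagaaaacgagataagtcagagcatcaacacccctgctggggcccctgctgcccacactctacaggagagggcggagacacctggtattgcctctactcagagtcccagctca
Cd3e: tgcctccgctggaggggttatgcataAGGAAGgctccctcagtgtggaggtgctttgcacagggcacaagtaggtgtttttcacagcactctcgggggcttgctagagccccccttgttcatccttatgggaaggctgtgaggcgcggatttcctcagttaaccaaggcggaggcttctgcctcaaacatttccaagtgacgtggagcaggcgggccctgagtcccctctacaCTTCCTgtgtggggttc

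Nkg7 held both motifs, Cd3d and Cd3e held AGGAAG and Cd3g held neither. Over the whole windows, AGGAAG was present in 6 of 8, against 35.4% of all 32851 RefSeq windows of the same kind, and TGTGGT in 2 of 8, against 16.8%. The E box CAGNTG was in 8 of 8, against 51.4%. The TATA box letters TATAAA were in 0 of 8, against 13.6%. The GATA letters AGATAA were in 1 of 8 (Cd3g), against 11.2%, the TCF letters CTTTGA in 1 of 8 (Cd3d), against 16%, and the NF-kB motif in 1 of 8 (Ltb), against 1.63%. All 7 motifs were searched on both strands, and none contains another. A match describes these letters and is not evidence of binding.

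Summed over the 10 genes, the level was 14.9, 21.0 and 11.3 CPM in Old+PM replicates 1 to 3, and 7.87, 7.54 and 10.4 CPM in Old+YM replicates 1 to 3. It was 8.86, 5.45, 8.76, 11.01 and 64.5 CPM in Old replicates 1 to 5, and 4.86, 6.00, 5.67, 3.24 and 3.42 CPM in Young replicates 1 to 5. Old replicate 5 therefore was the highest of the 16 libraries and the 3 Old+PM libraries came next, while the other Old libraries and the Old+YM libraries shared one range. Every Old+PM and Old+YM library lay above every Young library, and among the Old libraries only replicate 2 fell within the Young range. As means these sums were 15.7 ± 4.89 CPM in Old+PM (SD, n = 3), 8.61 ± 1.58 CPM in Old+YM (SD, n = 3), 8.52 ± 2.29 CPM in Old replicates 1 to 4 (SD, n = 4) and 4.63 ± 1.27 CPM in Young (SD, n = 5). With Old replicate 5 included, the Old mean was 19.7 ± 25.1 CPM (SD, n = 5), above that of Old+PM. No test was made of the sum, because its members were chosen with earlier results known.

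**Figure D1:**
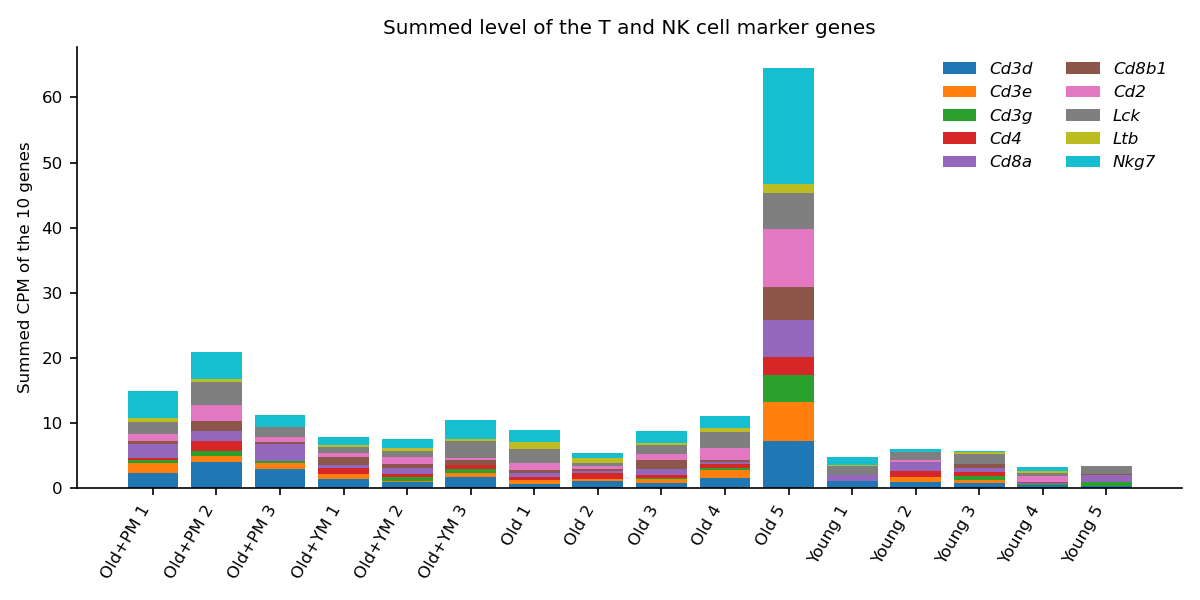
Stacked bars give the CPM of the 10 genes in each of the 16 libraries (vertical axis, summed CPM from 0; horizontal axis, library). Old replicate 5 reaches 64.5 CPM, the 3 Old+PM libraries 11.3 to 21.0 CPM, and the Young libraries 3.24 to 6.00 CPM.

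Old kidneys against Young kidneys asked what natural ageing did to these transcripts. Of the 7 tested genes, 3 rose with age in the fit of all 16 libraries, and none fell. These were Nkg7, Cd2 and Cd8b1, by 3.04 to 3.20 on the log2 scale. Over all genes tested, 6.47% rose and 7.13% fell in this comparison. None of the 3 passed once Old replicate 5 was left out, where 3.73% of all genes rose. Their fold changes without it were 1.57 to 1.74 on the log2 scale. For none of the 10 genes did all Old libraries lie above all Young libraries, a pattern that 4.21% of all tested genes showed.

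The CD3 chains, which relay the signal of the T cell receptor, start with Cd3d, the chain named delta. Cd3d had 2.33, 4.07 and 3.001 CPM in Old+PM replicates 1 to 3, and 1.45, 0.973 and 1.64 CPM in Old+YM replicates 1 to 3. It had 0.697, 1.15, 0.835, 1.56 and 7.29 CPM in Old replicates 1 to 5, and 1.03, 0.915, 0.810, 0.431 and 0.394 CPM in Young replicates 1 to 5. All Old+PM libraries were above all Old+YM libraries, all Young libraries and Old replicates 1 to 4, whereas Old and Young overlapped. Old against Young gave a log2 fold change of 1.65 (SE 0.58, edgeR adjusted p = 0.0624), and 0.54 (SE 0.44, edgeR adjusted p = 0.519) without Old replicate 5.

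Cd3e, the epsilon chain, had 1.58, 0.796 and 0.931 CPM in Old+PM replicates 1 to 3, and 0.725, 0.122 and 0.614 CPM in Old+YM replicates 1 to 3. It had 0.498, 0.287, 0.626, 1.17 and 5.89 CPM in Old replicates 1 to 5, while 3 of the 5 Young libraries had no count and the others had 0.813 and 0.405 CPM. The Old libraries overlapped with the Young ones, and the difference did not pass (log2 fold change 2.68, SE 0.94, edgeR adjusted p = 0.0639). Without Old replicate 5 it was 1.30 (SE 0.86, edgeR adjusted p = 0.406). Cd3g, the gamma chain, had 5, 10 and 2 counts in Old+PM replicates 1 to 3, 0 to 6 counts in the Old+YM libraries, 0 to 3 counts in Old replicates 1 to 4 and 0 to 6 counts in the Young libraries. Old replicate 5 alone had more, with 42 counts of Cd3g.

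Among the co-receptors, Cd8b1 encodes the beta chain of CD8, which marks conventional cytotoxic T cells. Cd8b1 had 0.466, 1.504 and 0.414 CPM in Old+PM replicates 1 to 3, and 1.24, 0.730 and 0.818 CPM in Old+YM replicates 1 to 3. It had 0.398, 0.287, 1.36, 0.390 and 5.09 CPM in Old replicates 1 to 5, and 0, 0.102, 0.506, 0.108 and 0.131 CPM in Young replicates 1 to 5. In 4 of the 5 Young libraries this was 0 or 1 count, and only Young replicate 3, with 5 counts, reached into the Old range. Cd8b1 rose with age in the fit of all libraries (log2 fold change 3.04, SE 0.89, edgeR adjusted p = 0.0277). Without Old replicate 5 it was 1.73 (SE 0.81) and no longer passed (edgeR adjusted p = 0.211).

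Cd8a, the alpha chain, which some other lymphocytes and dendritic cells carry too, had 2.14, 1.504 and 2.48 CPM in Old+PM replicates 1 to 3, and 0.414, 0.851 and 0 CPM in Old+YM replicates 1 to 3. It had 0.697, 0.287, 0.939, 0.292 and 5.69 CPM in Old replicates 1 to 5, and 0.826, 1.32, 0.607, 0.216 and 1.05 CPM in Young replicates 1 to 5. Old replicates 1 to 4 thus lay within the Young range, and the Old+PM libraries lay above it. Old against Young was 0.97 on the log2 scale (SE 0.76, edgeR adjusted p = 0.442), and -0.54 (SE 0.66, edgeR adjusted p = 0.701) without Old replicate 5. Cd4, the helper co-receptor, had 3, 17 and 1 counts in Old+PM replicates 1 to 3, 4 to 9 counts in the Old+YM libraries, 4 to 10 counts in Old replicates 1 to 4, 28 counts in Old replicate 5 and 0 to 9 counts in the Young libraries. Its groups overlapped throughout.

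Set against each other, Cd8a and Cd8b1 together had 28, 34 and 28 counts in Old+PM replicates 1 to 3, where Cd4 had 3, 17 and 1. The same 2 genes had 16, 13 and 8 counts in the Old+YM libraries, where Cd4 had 9, 4 and 7, and 108 counts in Old replicate 5, where Cd4 had 28. In Old replicates 1 to 4 they had 11, 6, 22 and 7 counts, where Cd4 had 5, 10, 4 and 7. In Young replicates 1 to 5 they had 8, 14, 11, 3 and 9 counts, where Cd4 had 1, 9, 7, 0 and 0. These counts rest on different transcripts and give no cell numbers.

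Cd2 encodes an adhesion receptor through which T and NK cells hold on to their partner cells. Cd2 had 1.12, 2.57 and 0.724 CPM in Old+PM replicates 1 to 3, and 0.621, 0.973 and 0.307 CPM in Old+YM replicates 1 to 3. It had 1.10, 0.383, 0.939, 1.75 and 8.79 CPM in Old replicates 1 to 5, and 0, 0.305, 0.101, 0.971 and 0.131 CPM in Young replicates 1 to 5. A single Young library, replicate 4, reached the Old range. Cd2 rose with age (log2 fold change 3.05, SE 0.87, edgeR adjusted p = 0.0266), and without Old replicate 5 it was 1.74 (SE 0.75, edgeR adjusted p = 0.172).

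Lck, the kinase that phosphorylates the CD3 chains, had 1.77, 3.45 and 1.45 CPM in Old+PM replicates 1 to 3, and 0.932, 0.973 and 2.56 CPM in Old+YM replicates 1 to 3. It had 2.19, 0.574, 1.36, 2.53 and 5.59 CPM in Old replicates 1 to 5, and 1.45, 1.12, 1.52, 0.324 and 1.18 CPM in Young replicates 1 to 5. The ranges of all 4 groups overlapped. The difference between Old and Young did not pass (log2 fold change 1.12, SE 0.53, edgeR adjusted p = 0.170), nor did it without Old replicate 5 (0.56, SE 0.51, edgeR adjusted p = 0.577). Ltb encodes lymphotoxin beta, a membrane ligand with which lymphocytes instruct stromal cells of lymphoid tissue. Ltb had 6, 6 and 1 counts in Old+PM replicates 1 to 3, 3, 4 and 3 counts in Old+YM replicates 1 to 3, 10, 8, 4, 5 and 14 counts in Old replicates 1 to 5, and 1, 0, 3, 4 and 0 counts in Young replicates 1 to 5. It was the gene on which Old replicate 5 stood apart least, at 2.10 times the mean CPM of the other Old libraries, where the other 9 genes stood 3.36 to 42.3 times above it. With no filter, Old against Young gave Ltb a log2 fold change of 2.17 (SE 0.87, edgeR adjusted p = 0.134), and 1.90 without Old replicate 5 (SE 0.96, edgeR adjusted p = 0.325). In the same fit Cd3g and Cd4 did not pass either, at 1.74 and 1.55 (edgeR adjusted p = 0.482 and 0.270), and at -1.30 and 0.84 without Old replicate 5 (edgeR adjusted p = 0.641 and 0.645).

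Nkg7 showed the largest fold change with age of the 7 tested genes in the fit of all libraries, but not without Old replicate 5, where Cd2 and Cd8b1 changed more. Nkg7 had 4.19, 4.16 and 1.86 CPM in Old+PM replicates 1 to 3, and 1.24, 1.34 and 2.86 CPM in Old+YM replicates 1 to 3. It had 1.79, 0.765, 1.77, 1.85 and 17.8 CPM in Old replicates 1 to 5, and 1.34, 0.508, 0.101, 0.539 and 0 CPM in Young replicates 1 to 5. The Old+PM libraries lay above all Young libraries, and Old replicate 2 and Young replicate 1 made the Old and Young ranges overlap. Nkg7 rose with age (log2 fold change 3.20, SE 0.92, edgeR adjusted p = 0.0318), and without Old replicate 5 it was 1.57 (SE 0.61, edgeR adjusted p = 0.124). Old replicate 5 was 11.5 times above the mean of the other Old libraries for this gene.

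**Figure D2:**
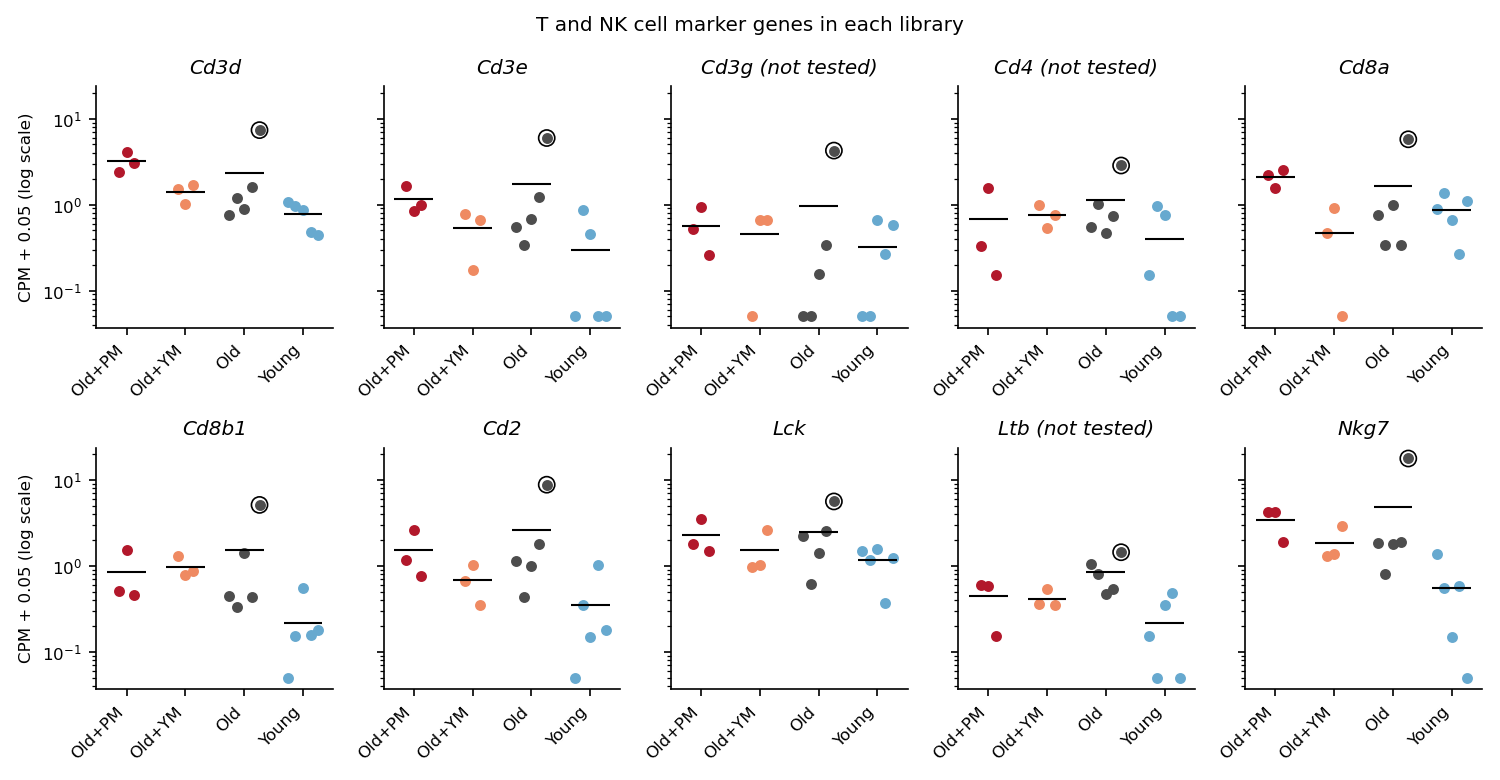
Points give the CPM of each gene in each library (vertical axis, CPM + 0.05 on a log scale), bars the group means, and the circled point Old replicate 5, with genes that the count filter removed marked as not tested. Old replicate 5 is the highest library in every panel, from 1.40 CPM for Ltb to 17.8 CPM for Nkg7.

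The 3 calls with age depended on Young libraries too. Cd8b1 also lost its call without Young replicate 1, 2 or 4, Cd2 without Young replicate 1, 2 or 3, and Nkg7 without Young replicate 2, 3, 4 or 5. With Old replicate 5 among these omissions, the edgeR adjusted p was 0.0649 to 0.211 for Cd8b1, 0.0578 to 0.172 for Cd2 and 0.0541 to 0.124 for Nkg7. Cd3d and Nkg7 swapped sides when the count filter was dropped, with edgeR adjusted p-values of 0.0498 and 0.0775. In that fit 3.44% of all genes rose.

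Old+PM against Young and Old+YM against Young asked whether treated aged kidneys still stood apart from young ones. Both share the Young libraries with the comparison above. In Old+PM, Cd3d rose (log2 fold change 2.09, SE 0.63, edgeR adjusted p = 0.0496), as 1 of the 7 tested genes where 2.93% of all genes rose. The call lay at the threshold and was lost without any 1 of 12 libraries, each Young, Old+YM and Old+PM library and Old replicate 2 (edgeR adjusted p = 0.0520 to 0.219). Without Old replicate 5, whose spread enters the shared fit, Cd3d passed (edgeR adjusted p = 0.00512) and so did Nkg7, at 2.71 (SE 0.61, edgeR adjusted p = 0.0089), where 4.18% of all genes rose. With all libraries Nkg7 had the same fold change and did not pass (edgeR adjusted p = 0.120). Cd3d, Cd8a and Nkg7 were higher in every Old+PM library than in every Young library. This is 3 of 10 genes, all 3 among the 7 tested, where 6.95% of all tested genes did so.

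In Old+YM against Young, 0 of the 7 tested genes passed in edgeR, DESeq2 or limma-voom, where 6.42% of all genes rose in edgeR. At an unadjusted p under 0.05 edgeR had 1, Cd8b1 (log2 fold change 2.36, edgeR adjusted p = 0.109). Cd8b1 was also the 1 gene of 10 that was higher in every Old+YM library than in every Young library. It is among the 7 tested genes, and 12% of all tested genes showed this pattern.

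Old+PM against Old and Old+YM against Old asked what each decoction changed within old age. Neither gave a call among the 7 tested genes in edgeR, DESeq2 or limma-voom. In edgeR 0% of all genes rose or fell in Old+PM against Old, and 0.0205% rose and 0% fell in Old+YM against Old. An unadjusted p under 0.05 was reached by 0 genes in Old+PM and by 1 in Old+YM, where Cd2 had a log2 fold change of -2.03 (SE 0.96, edgeR adjusted p = 0.523). For Old+PM the 7 log2 fold changes ran from -0.89 to 0.44 with 5 below 0. For Old+YM they ran from -2.03 to -0.68, all 7 below 0.

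Both patterns depended on Old replicate 5. Without it the 7 log2 fold changes of Old+PM against Old ran from 0.41 to 1.87, all above 0, and 2 were under an unadjusted p of 0.05. These were Cd8a, at 1.87 (SE 0.69), and Cd3d, at 1.55 (SE 0.44), each with an edgeR adjusted p of 0.902. Those of Old+YM against Old ran from -0.71 to 0.63 without it, with 4 below 0 and 0 under an unadjusted p of 0.05.

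**Figure D3:**
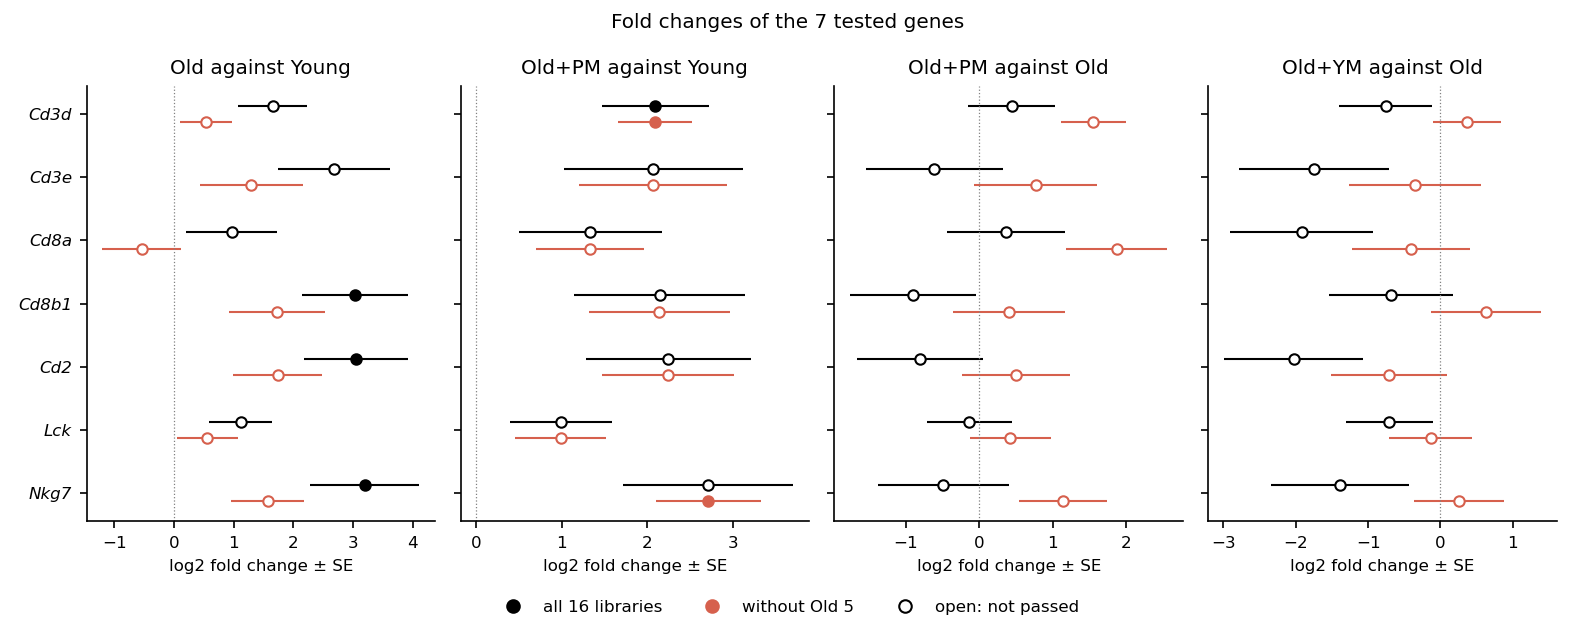
Log2 fold changes (horizontal axes) with their SE for the 7 tested genes in 4 comparisons, from the fit of all 16 libraries (black) and without Old replicate 5 (red); filled points passed an edgeR adjusted p of 0.05. For Old+PM against Old the red points all lie above 0 and the black points run from -0.89 to 0.44.

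Old+PM against Old+YM set the related decoctions side by side, as 1 pair. The dose, schedule and ages of treatment were the same as read from the labels, with the PM dose taken as described above. None of the 7 tested genes passed in edgeR, DESeq2 or limma-voom, where 0% of all genes rose in edgeR, and 1 was under an unadjusted p of 0.05. This was Cd8a, with a log2 fold change of 2.28 (SE 1.05, 95% interval 0.23 to 4.34, edgeR adjusted p = 0.371). The intervals of Cd3d (1.20, 95% interval -0.16 to 2.56) and Nkg7 (0.90, 95% interval -1.12 to 2.92) spanned 0, and they hold differences of either sign or several-fold in size. Cd3d, Cd3e and Cd8a were higher in every Old+PM library than in every Old+YM library. This is 3 of 10 genes, all 3 among the 7 tested, where 11.9% of all tested genes did so. Leaving out Old replicate 5, which is in neither group, gave edgeR adjusted p-values of 0.301 for Cd3d and 0.253 for Cd8a.

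The 10 genes were next read against 18 genes that leukocytes of every kind express, such as Ptprc, which encodes CD45. Per 100 counts of those 18 genes, the 10 genes had 7.10, 8.27 and 6.96 counts in Old+PM replicates 1 to 3, and 4.13, 4.45 and 5.56 counts in Old+YM replicates 1 to 3. They had 4.49, 3.34, 5.43, 6.15 and 9.33 counts in Old replicates 1 to 5, and 4.59, 5.85, 5.12, 2.99 and 2.91 counts in Young replicates 1 to 5. The Old+PM libraries and Old replicate 5 lay above all others on this ratio, while Old+YM, Old replicates 1 to 4 and Young overlapped. Means were 7.44 ± 0.720 in Old+PM (SD, n = 3), 4.71 ± 0.747 in Old+YM (SD, n = 3), 4.85 ± 1.22 in Old replicates 1 to 4 (SD, n = 4) and 4.29 ± 1.30 in Young (SD, n = 5). With Old replicate 5 included, the Old mean was 5.75 ± 2.26 (SD, n = 5). The 18 genes themselves rose with age in 12 of 18 cases, and in 10 of 18 without Old replicate 5, where 6.47% and 3.73% of all genes rose.

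**Figure D4:**
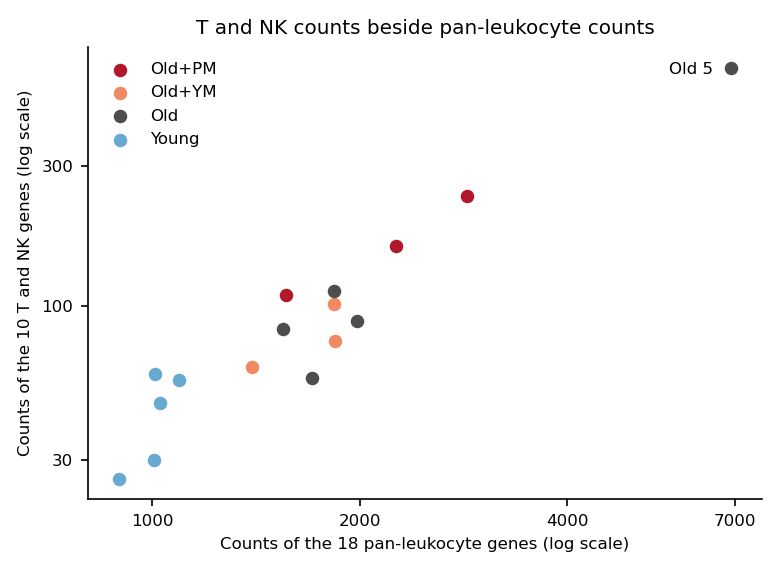
Counts of the 10 T and NK genes (vertical axis, log scale) against counts of 18 pan-leukocyte genes (horizontal axis, log scale), 1 point a library. The Old+PM libraries have 109 to 237 T and NK counts at 1565 to 2865 pan-leukocyte counts, and Old replicate 5 has 646 at 6923.

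A set of 3 further lists covered the pathway around these genes, with TCR signalling and co-stimulation (30 genes), T cell lineage and homing (29 genes found in the files) and NK and cytotoxic effectors (29 genes). Of 42 genes that could be tested, 18 rose in Old against Young and none fell, where 6.47% of all genes rose. Without Old replicate 5 it was 8, all of them among the 18, where 3.73% of all genes rose. By list, 5 of 16 tested genes rose for receptor signalling, 9 of 17 for lineage and homing and 4 of 9 for effectors, at median log2 fold changes of 1.52, 1.46 and 1.56 against 0.022 over all genes tested. Without Old replicate 5 these were 2 of 16, 4 of 17 and 2 of 9, at medians of 1.05, 0.89 and 1.07.

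Among signalling genes, Fyb, an adaptor that links the receptor to integrins and is also made by myeloid cells, rose by 1.71 (SE 0.36, edgeR adjusted p = 0.00627) on the log2 scale, and by 1.18 (SE 0.22, edgeR adjusted p = 0.00256) without Old replicate 5. Ptpn7, a phosphatase of lymphocytes, rose by 3.26 (SE 0.78, edgeR adjusted p = 0.00852), with 4 to 25 counts in the Old libraries and 0 to 3 in the Young ones, and held without Old replicate 5 (2.75, edgeR adjusted p = 0.0338). Ptpn22, which restrains receptor signalling, and Cd247, the zeta chain that completes the receptor complex, rose by 1.68 and 2.56, and neither passed without that library (edgeR adjusted p = 0.0836 and 0.0944).

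Among lineage and homing genes, Cxcr6, a chemokine receptor of effector T cells that reside in tissue, rose by 1.82 (SE 0.42, edgeR adjusted p = 0.00734). It held without Old replicate 5, at 1.49 (edgeR adjusted p = 0.0289). Bcl11b, a transcription factor of T cell commitment, rose by 0.57 (SE 0.14, edgeR adjusted p = 0.00982), with 22.8 to 29.8 CPM in the Old libraries and 12.8 to 21.5 CPM in the Young ones, and by 0.59 without Old replicate 5 (edgeR adjusted p = 0.0174). Old replicate 5 had 24.7 CPM of Bcl11b, within the range of the other Old libraries. The summed T and NK genes had 64.5 CPM in Old replicate 5 and 3.24 to 6.00 CPM in the Young libraries. Bcl11b alone was above that sum in every Young library. The share of Bcl11b that came from T cells was not tested. Il7r encodes the receptor for interleukin 7, on which naive and memory T cells depend. Il7r had 1.59, 2.30, 1.36, 1.95 and 1.30 CPM in Old replicates 1 to 5, and 0.413, 0.203, 0.405, 0 and 0.657 CPM in Young replicates 1 to 5. Every Old library was above every Young one, Old replicate 5 was the lowest of its group, and the rise of 2.33 (SE 0.56, edgeR adjusted p = 0.00942) held without it (2.41, edgeR adjusted p = 0.0128).

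Il7r also had 1.58, 2.74 and 2.90 CPM in Old+PM replicates 1 to 3, and 0.725, 0.365 and 0.102 CPM in Old+YM replicates 1 to 3. The Old+PM libraries were all above the Old+YM libraries, at a log2 difference of 2.56 (SE 0.70) that did not pass over all genes (edgeR adjusted p = 0.258). Against Old, the Old+YM level was -2.06 on the log2 scale (SE 0.66, edgeR adjusted p = 0.324), and -2.13 without Old replicate 5 (SE 0.68, edgeR adjusted p = 0.302). Against Young, Il7r rose in Old+PM by 2.83 (SE 0.60, edgeR adjusted p = 0.00864).

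Among effector genes, the chemokine Ccl5 rose with age by 3.97 (SE 0.99, edgeR adjusted p = 0.0197) and held without Old replicate 5 (2.04, SE 0.39, edgeR adjusted p = 0.00339). Ccl5 had 12.1, 21.6 and 3.93 CPM in Old+PM replicates 1 to 3, 4.14, 2.92 and 5.42 CPM in Old+YM replicates 1 to 3, 10.2, 7.56, 5.95, 8.87 and 122.5 CPM in Old replicates 1 to 5, and 0.911 to 2.69 CPM in the Young libraries. All libraries of the 3 aged groups were above all Young libraries. Tyrobp, a signalling adaptor of NK cells that macrophages carry in abundance, rose by 1.56 and held (0.98 without Old replicate 5, edgeR adjusted p = 0.00878). Gzmk, a granzyme of memory-like cytotoxic T cells, and Ccl4, a chemokine of activated lymphocytes and macrophages, rose by 3.97 and 2.02 and did not pass without that library (edgeR adjusted p = 0.193 and 0.314).

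Receptors of NK cells were looked up to check the name of the set, and those named were chosen after their values were seen. Ncr1, the NK receptor NKp46, had at most 5 counts in an Old+PM library, 4 in an Old+YM library, 2 in an Old library and 1 in a Young library, and Klrb1c (NK1.1) at most 3, 5, 9 and 7 counts in those 4 groups. Trac, the constant region of the T cell receptor alpha chain, had 12 to 53 counts in the Old+PM libraries, 17 to 18 in the Old+YM libraries, 7 to 49 in the Old libraries and 3 to 11 in the Young libraries. Klrc1, a receptor of NK cells and of cytotoxic T cells, had at most 6 counts in an Old+PM library, 11 in an Old+YM library, 44 in an Old library, which was replicate 5, and 10 in a Young library. The NK receptors named are part of the list of 29 NK and cytotoxic effector genes and do not stand for the rest of it. Of those 29 genes, 2 to 9 had no count in an Old+PM library, 5 to 13 in Old+YM and 11 to 16 in Young. In Old replicates 1 to 4 it was 7 to 14 genes, and in Old replicate 5 it was 2. The share of Nkg7 that came from NK cells was not tested.

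In Old+YM against Young, 5 of the 42 tested pathway genes rose, where 6.42% of all genes did, among them Gata3 (0.68, SE 0.17, edgeR adjusted p = 0.0101), Cxcr6 (1.79, SE 0.47, edgeR adjusted p = 0.0145), S1pr1 (1.85, SE 0.52, edgeR adjusted p = 0.0270) and Ptpn7 (2.97, SE 0.86, edgeR adjusted p = 0.0243), and the fifth was Bcl11b (0.57, edgeR adjusted p = 0.0207). GATA3 directs helper T cells and is also made by collecting duct cells, and S1PR1 lets lymphocytes leave tissue and is abundant on endothelium. In Old+PM against Young 3 of 42 rose, where 2.93% of all genes did, namely Il7r, Fyb (1.67, SE 0.40, edgeR adjusted p = 0.0228) and Ms4a4b (1.94, SE 0.54, edgeR adjusted p = 0.0354), a membrane protein of T cells. Without Old replicate 5, 10 rose in Old+YM and 13 in Old+PM, with all earlier ones kept, where 7.83% and 4.18% of all genes rose. No pathway gene passed in edgeR in Old+PM against Old, Old+YM against Old or Old+PM against Old+YM. Nearest to the threshold in their lists were Ptpn7, Klrc1 and Gata3 in Old+PM against Old (edgeR adjusted p = 0.790 to 0.850, and 0.902 to 0.977 without Old replicate 5), Ccl5 and Il7r in Old+YM against Old (0.456 and 0.324, and 0.457 and 0.302 without Old replicate 5), and Lcp2, Klrc1 and Il7r in Old+PM against Old+YM (0.258 to 0.547).

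Lcp2 encodes SLP-76, an adaptor downstream of the CD3 chains that myeloid cells also use. Lcp2 had 3.08, 4.07 and 3.52 CPM in Old+PM replicates 1 to 3, against 1.14, 1.58 and 0.818 CPM in Old+YM replicates 1 to 3. It had 1.19, 1.15, 1.36, 0.877 and 9.09 CPM in Old replicates 1 to 5, and 0.431 to 1.34 CPM in the Young libraries. Its order was that of Cd3d, with Old+PM and Old replicate 5 above all others, and the log2 difference between the decoctions of 1.59 (SE 0.74) did not pass (edgeR adjusted p = 0.373).

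Markers of other cells moved along with the T and NK genes, and their part in these results was not tested. In Old against Young, 14 of 22 tested macrophage and dendritic cell genes rose, 8 of 15 B and plasma cell genes, 1 of 2 neutrophil genes and 2 of 6 lymphoid stroma genes, and without Old replicate 5 these counts were 8 (with 1 that fell), 6, 1 and 1. Over all genes tested, 6.47% rose and 7.13% fell with all libraries, and 3.73% rose without Old replicate 5. Of 16 kidney epithelium genes 1 rose and 2 fell, with and without that library. Summed macrophage and dendritic cell genes had 287 to 449 CPM in the Old+PM libraries, 251 to 296 CPM in the Old+YM libraries, 206 to 360 CPM in Old replicates 1 to 4, 1059 CPM in Old replicate 5 and 180 to 209 CPM in the Young libraries. B and plasma cell genes ran apart from this, with 409 to 798 CPM in Old+PM, 740 to 1514 CPM in Old+YM, 325 to 1327 CPM in Old replicates 1 to 4, 810 CPM in Old replicate 5 and 79.6 to 180 CPM in Young.

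In Old replicate 5, set against the mean of the other 4 Old libraries, the T and NK genes stood at 7.57 times, NK and cytotoxic effectors at 5.56 times, macrophage and dendritic cell genes at 4.01 times, pan-leukocyte genes at 3.95 times, receptor signalling at 3.13 times and lineage and homing at 2.12 times. In the lineage and homing list, Bcl11b had 22.8 to 29.8 CPM and Gata3 20.1 to 31.5 CPM in Old replicates 1 to 4. The list sum was 85.1 to 110 CPM in those libraries. Both genes lay within these ranges in Old replicate 5, at 24.7 and 30.3 CPM. B and plasma cell genes stood at 1.04 times, kidney epithelium genes at 0.819 times and the sum of red blood cell and platelet genes at 0.141 times. This blood sum was 160 CPM in Old replicate 5 and ran from 261 to 2095 CPM in Old replicates 1 to 4. Pf4, a platelet gene of that list, went the other way, with 6.89 CPM in Old replicate 5 and 2.39 to 5.36 CPM in the others. Old replicate 5 thus had more T, cytotoxic and myeloid transcripts than its group, a like level of B and plasma cell transcripts, and a lower blood sum.

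**Figure D5:**
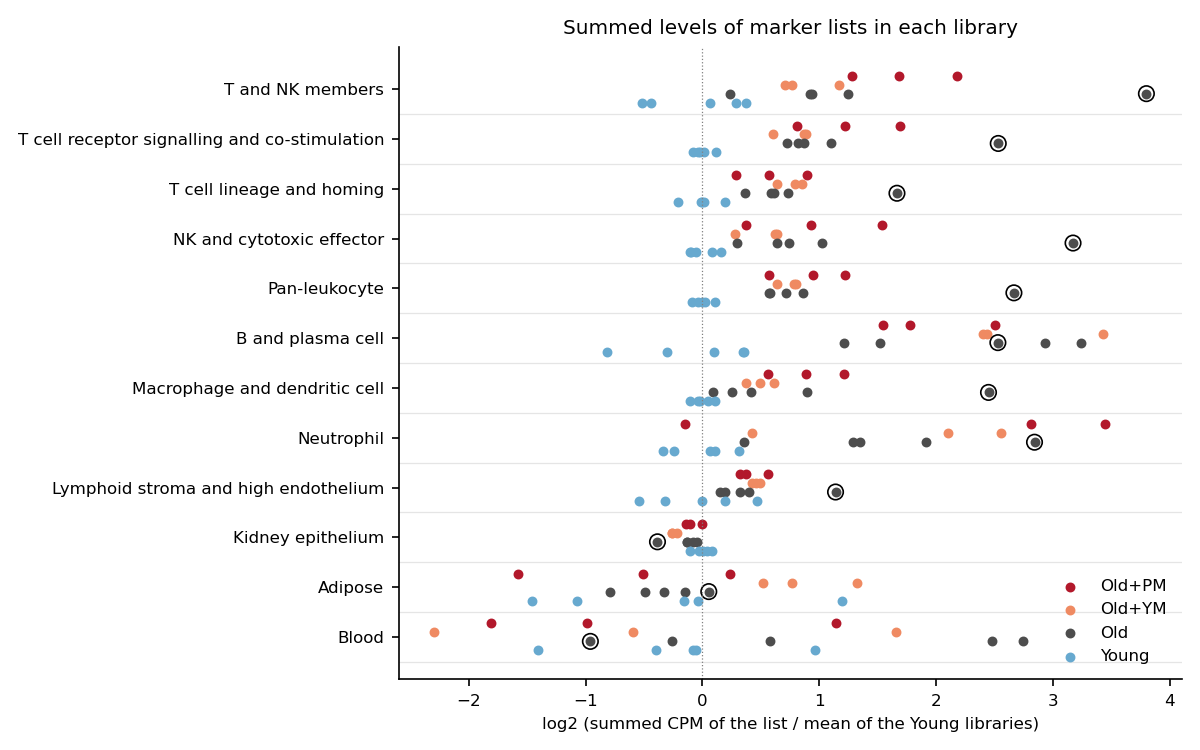
Each point is 1 library, placed by the summed CPM of a marker list relative to the mean of the Young libraries (horizontal axis, log2), with lists down the page and Old replicate 5 circled. Old replicate 5 is the rightmost point for the T and NK genes, at 64.5 CPM, and falls within the other Old libraries for B and plasma cell genes, at 810 CPM.

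To find genes with the most similar course, libraries were ranked by the summed T and NK level and by each of 10303 genes of at least 5 CPM on average. The likeness was the mean absolute rank difference over the 16 libraries, where the median gene had 5.5 ranks. The nearest was H2-DMa, which helps load peptides on MHC class II, at 1.125 ranks, with 25.1, 33.4 and 18.8 CPM in Old+PM replicates 1 to 3, 13.7 to 15.4 CPM in Old+YM, 12.7 to 54.0 CPM in Old and 9.07 to 12.96 CPM in Young. Then came Cd52, a lymphocyte and myeloid surface protein, Chst15, a sulfotransferase, Cybb, the phagocyte oxidase subunit, and Trerf1, each at 1.25 ranks. Tacc1 followed at 1.375 ranks, and Alox5ap, Eva1b, Fcer1g and Gjc1 at 1.5 ranks. Of the 10, H2-DMa, Cd52 and Cybb were also among the 10 nearest over the 11 aged libraries alone. This is a description over libraries that share their groups and depth.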

How the data were processed

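Kidney RNA of 16 mouse libraries was prepared with the QuantSeq 3′ kit, per the labels' protocols. The authors deposited whole-number counts per gene symbol for each library, made with Bowtie2 and bedtools on mm10, per the submitters' processing notes; no source used here gives versions, strand setting or annotation. Libraries were grouped by their treatment labels. All 16 were fitted together in edgeR 4.0.16 (R 4.3.3) with TMM scaling, filterByExpr (minimum count 10), the robust quasi-likelihood F test (two-sided) and Benjamini-Hochberg adjustment over 14665 of 40879 symbols, at a threshold of 0.05. CPM values use TMM-scaled library sizes. Totals of 8223008 to 10914515 counts limit the precision of genes with few counts. Each comparison was repeated under DESeq2 1.42.0 size factors, upper quartile scaling, no filter, the DESeq2 test (which left 1 or 2 of the 7 tested genes with no adjusted p), limma-voom (limma 3.58.1), only the 2 groups compared, the replicate number as a block, and leaving out each library. The 10 genes and the lists were chosen with earlier results of these data known. Of each pathway list, the 4 genes with the smallest adjusted p past the threshold are named per comparison, or the gene with the smallest p where none passed. A few of these are not reported here. No set test was made. Shared replicate numbers did not pair the libraries (20 same-number pairs, correlations of -0.304 to 0.158, 3 over 0.1), so the block is only an alternative. No 2 libraries held identical values. The test was checked on simulated data.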

Additional observations from a re-analysis of the deposited data

Results flagged for a closer look

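For 8 of the 10 genes Old replicate 5 lay far above the other 4 Old libraries, by a gap larger than Dixon's 95% critical value of 0.71 for 5 samples. Its levels were 7.29 CPM for Cd3d, 5.89 CPM for Cd3e and 4.19 CPM for Cd3g among the CD3 chains, 2.80 CPM for Cd4, 5.69 CPM for Cd8a and 5.09 CPM for Cd8b1 among the co-receptors, 8.79 CPM for Cd2 and 17.8 CPM for Nkg7. The sum of the 10 genes was 64.5 CPM, next to 11.01 CPM in the library below it. Lck and Ltb did not pass this criterion. In the Young group 1 library stood apart, with Cd8b1 at 0.506 CPM in Young replicate 3, or 5 counts, next to 0.131 CPM. For normally distributed values chance alone marks about 1 in 20 groups, a rate that may not hold for genes with so few counts. In all, 22 groups were examined, 11 of Old and 11 of Young libraries, which share their samples.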

How the results depend on the processing

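The genes called among the 10 in Old against Young numbered 3, but 0 under limma-voom, 0 with only the 2 groups compared, 1 with the replicate block (Cd2) and 0 to 4 when 1 library was left out. The pathway genes called numbered 18, but 9 under limma-voom, 11 with only the 2 groups and 8 to 24 when 1 library was left out, lowest without Old replicate 5. In Old+PM against Young the genes called among the 10 numbered 1, but 2 with only the 2 groups, 2 with the replicate block and 0 to 2 when 1 library was left out. The pathway genes numbered 3, but 5 under DESeq2 size factors, 6 under upper quartile scaling, 12 under the DESeq2 test, 6 with only the 2 groups, 13 with the replicate block and 0 to 13 when 1 library was left out. In Old+YM against Young the pathway genes numbered 5, but 8 under the DESeq2 test, 10 with only the 2 groups, 12 with the replicate block and 1 to 10 when 1 library was left out. In Old+PM against Old+YM the DESeq2 test called 1 pathway gene, where edgeR called 0. The shares of all genes called are not given beside these counts, so the shifts cannot be told from a general loss or gain of calls. The cause of these shifts was not tested.

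Log2 fold changes that changed sign were all below the threshold. Under limma-voom they were 0.19 for Cd8b1 in Old+YM against Old, and 0.18 for Cd3e, 0.15 for Lck and 0.43 for Nkg7 in Old+PM against Old. With the replicate block they were 0.017 for Cd3d and 0.37 for Cd8b1 in Old+YM against Old, and 0.37 for Cd3e, 0.11 for Cd8b1, 0.62 for Cd2, 0.25 for Lck and 0.80 for Nkg7 in Old+PM against Old. When 1 library was left out they ran from -0.54 to 1.23 for Cd8a in Old against Young, from -0.99 to 0.37 for Cd3d, from -0.94 to 0.63 for Cd8b1 and from -1.87 to 0.26 for Nkg7 in Old+YM against Old, from -0.96 to 0.77 for Cd3e, from -1.73 to 0.41 for Cd8b1, from -1.46 to 0.50 for Cd2, from -0.59 to 0.43 for Lck and from -0.76 to 1.14 for Nkg7 in Old+PM against Old, from -1.07 to 0.082 for Cd8b1 in Old+PM against Old+YM, and from -0.23 to 0.68 for Lck in Old+YM against Young.

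After the data were seen, Old replicate 5 was also left out with the filter run again or dropped. Old against Young then had 0 calls among the 10 genes, Old+PM against Young had 2, and Old+YM against Young had 1 with no filter (Nkg7, 1.84). With no filter, 544, 613 and 1053 of all genes rose in these comparisons, in the same order. Shares of all genes are not given for these fits, so the calls cannot be set against them. The signs turned as with this library left out alone, at -0.54 and -0.52 for Cd8a in Old against Young, and in Old+PM against Old at 0.41 and 0.40 for Cd8b1, 0.50 and 0.51 for Cd2, 0.42 and 0.43 for Lck and 1.14 and 1.15 for Nkg7, with the filter run again and with no filter. Cd3e was at 0.77 with no filter and was removed by the filter run again. In Old+YM against Old both settings gave 0.37 for Cd3d, 0.63 for Cd8b1 and 0.25 for Nkg7. Upper quartile scaling gave 1104 genes that rose and 758 that fell in Old against Young, next to 949 and 1046 under TMM, 577 and 347 next to 429 and 534 in Old+PM against Young, and 1181 and 1040 next to 942 and 1412 in Old+YM against Young. It moved no median of all genes by more than 0.1 on the log2 scale. At about 8.22 counts per CPM in the shallowest library, Cd3g, Cd4 and Ltb were tested with no filter only, and none passed in any of the 6 comparisons.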

Other observations

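Ctsw, a cathepsin of cytotoxic lymphocytes, did not follow Nkg7 in Old replicate 5. Ctsw had 1.40, 2.30 and 1.86 CPM in Old+PM replicates 1 to 3, 2.07, 0.973 and 1.74 CPM in Old+YM replicates 1 to 3, 1.59, 1.43, 1.56, 1.85 and 1.498 CPM in Old replicates 1 to 5, and 1.34, 0.406, 0, 0.539 and 0.131 CPM in Young replicates 1 to 5. Every aged library other than Old+YM replicate 2 lay above every Young library. The log2 fold change of Old+YM against Young was 1.68 (SE 0.63, edgeR adjusted p = 0.0722). Klrc1, an inhibitory receptor of NK and cytotoxic T cells, had 0, 6 and 2 counts in Old+PM replicates 1 to 3, 6, 3 and 11 counts in Old+YM replicates 1 to 3, 3, 16, 9, 4 and 44 counts in Old replicates 1 to 5, and 6 to 10 counts in the Young libraries. Old+PM replicates 1 and 3 held fewer Klrc1 counts than any other library, although they came high for the T and NK genes, and the difference from Old did not pass (log2 fold change -2.54, SE 0.90, edgeR adjusted p = 0.790, and -1.61 without Old replicate 5, edgeR adjusted p = 0.902).

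Foxp3, which defines regulatory T cells and was singled out after its values were seen, had up to 13 counts in an Old+PM library, 1 in an Old+YM library, 2 in an Old library and 0 in every Young library. It was too low to be tested.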
